A study of Homo sapiens with 12 samples.

Results

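Ribosomal protein pseudogenes are intronless copies of ribosomal protein mRNAs that were reverse transcribed and inserted elsewhere in the genome. The members described here carried a processed pseudogene or transcribed processed pseudogene biotype in GENCODE, had a symbol built on RPL or RPS, RPLP0P, RPLP1P and RPSAP included, and reached 200 or more counts summed over 12 RNA-seq libraries. By this rule 127 genes were kept of 1585 of the same kind, within 58780 gene IDs. Of the kind, 646 had no count in any library, 442 had 1 to 9 counts, and 370 had 10 to 199 counts.

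The cells were HEK293, a human embryonic kidney line, in its Flp-In T-REx form. They were transfected with siRNAs against SAFB1, SAFB2 and SLTM together (triple KD), against SAFB1 (the gene SAFB) alone (SAFB1 KD), against SLTM alone (SLTM KD), or with control siRNA (control), with 3 libraries in each group. SAFB1 KD and SLTM KD cells received extra non-targeting siRNA so that their siRNA total matched that of triple KD. Knockdown of SAFB2 alone was not analysed here. SAFB1, SAFB2 and SLTM are nuclear RNA-binding proteins that share DNA- and RNA-binding domains and prefer purine-rich RNA. The study asked what happens to the RNA of genes that hold retrotransposed sequences when these proteins are lost.

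Ribosomal protein mRNAs are short, abundant and polyadenylated, and the machinery of LINE-1 elements has copied them into the human genome more often than most other mRNAs. Most copies have no promoter of their own. A copy that landed in an intron is transcribed within the precursor of its host gene when both lie on the same strand, and is normally removed with that intron.

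The targets were depleted in the groups named for them. SAFB averaged 38.2 ± 1.57 CPM (read counts scaled by library size) in triple KD, 45.3 ± 0.905 CPM in SAFB1 KD and 236 ± 4.98 CPM in SLTM KD, against 232 ± 2.27 CPM in control (SD, n = 3). SAFB2 averaged 29.1 ± 1.12 CPM in triple KD, against 126 ± 2.49 CPM in control, and stood at 209 ± 3.76 CPM in SAFB1 KD. SLTM averaged 25.0 ± 2.15 CPM in triple KD and 20.5 ± 1.88 CPM in SLTM KD, against 116 ± 1.17 CPM in control. Libraries held 56856228 to 75533510 gene counts. Of 7 genes known from HEK293, all 7 were at 1 CPM or more in every group, and of 12 markers of other cells 10 were under 1 CPM in every group. The 2 exceptions, named after their values were seen, were CDX2 at 28.7 to 31.8 CPM and COL1A1 at 11.9 to 12.9 CPM over the group means. In bulk RNA, fewer cells that express a gene and less RNA per cell cannot be told apart.

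The 127 pseudogenes came from 51 parent genes, 81 of them from large-subunit (RPL) and 46 from small-subunit (RPS) genes. Copies of RPL7A were the most frequent, with 11 members. Of all members, 33 sat within a single intron of a same-strand gene, 31 lay in an intron of a gene on the opposite strand only, and 63 lay in no intron. They differed widely in how far they had diverged from the parent mRNA. Identity to the parent ran between 71.5% and 100%, with a median of 97.4%, and 53 members were at 98% or more. Uniquely placed reads alone were counted, so identity limits what can be seen. In 7 members no 50-base window was unique in the GRCh38 genome, and over all members a median of 54.6% of the windows were unique. The position of a read is certain only where it spans a base that sets the copy apart. A poly(A) trace remained beside many of the copies. A run of 10 or more A lay within 200 bases downstream of 64 members, which is 50.4% against 17.1% of the 2437 processed pseudogenes tested.

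Counts set the membership and are given as a description. The members' summed counts ran between 203 and 382887 with a median of 619. RPS10P7 and RPL7AP50, with 203 counts each, and RPL13AP20 with 205 were the lowest inside the threshold. RPSAP70 with 199, RPL31P4 with 195 and RPL31P46 with 193 were the highest outside it. RPS2P5, a copy of RPS2 (a small-subunit protein near the mRNA entry site), took 66.9% of all member counts.

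The RPL7A copies carry the main contrast in the data and are shown here with their start region. RPL7A encodes a large-subunit protein. The 60 bases below cover coding bases 3 to 62 of RPL7A, counted from the A of its start codon, in the parent mRNA and in the 10 copies that align there without a gap. Capitals mark bases that differ from RPL7A. Positions are GRCh38, and the sequences are written on the strand of the copy.
RPL7A: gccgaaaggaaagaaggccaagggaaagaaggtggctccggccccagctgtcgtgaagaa
RPL7AP22 (chr2:158548427-158548486, plus): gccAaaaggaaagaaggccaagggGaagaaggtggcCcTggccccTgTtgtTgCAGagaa
RPL7AP16 (chr1:45651765-45651824, minus): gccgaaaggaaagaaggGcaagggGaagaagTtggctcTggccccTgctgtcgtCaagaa
RPL7AP43 (chr7:77116131-77116190, minus): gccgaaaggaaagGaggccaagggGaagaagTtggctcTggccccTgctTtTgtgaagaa
RPL7AP39 (chr7:102755148-102755207, plus): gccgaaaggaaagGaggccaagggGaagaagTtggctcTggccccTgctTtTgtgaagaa
RPL7AP66 (chr18:39335611-39335670, minus): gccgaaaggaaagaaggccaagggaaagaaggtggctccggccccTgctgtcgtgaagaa
RPL7AP62 (chr15:47730874-47730933, minus): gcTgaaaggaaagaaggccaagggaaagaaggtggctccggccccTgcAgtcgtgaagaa
RPL7AP30 (chr4:112788817-112788876, minus): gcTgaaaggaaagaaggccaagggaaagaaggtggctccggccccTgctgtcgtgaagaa
RPL7AP70 (chr22:19792296-19792355, plus): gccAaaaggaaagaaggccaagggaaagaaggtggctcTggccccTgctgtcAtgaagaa
RPL7AP50 (chr10:63903184-63903243, minus): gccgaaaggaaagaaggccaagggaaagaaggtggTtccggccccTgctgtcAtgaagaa
RPL7AP6 (chr14:69886079-69886138, minus): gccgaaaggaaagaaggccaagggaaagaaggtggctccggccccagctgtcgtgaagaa

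The first 4 copies listed, RPL7AP22, RPL7AP16, RPL7AP43 and RPL7AP39, differed from RPL7A at 6 to 10 of the 60 bases. The other 6 differed at 0 to 4. Among the 10, the change A27G was found in those 4 copies alone, and A48T was found in 9. RPL7AP19, the remaining RPL7A copy, did not align there without a gap and was not compared. It is also diverged from RPL7A and did not rise in triple KD (below), so this split leaves it out. RPL7AP43 and RPL7AP39 are 99.1% identical to each other over their length and lie in the paralogous genes FAM185BP and FAM185A. Each has 37.6% unique windows, so reads of these 2 copies may be split or lost between them.

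Triple KD was compared with control to ask what the loss of all 3 proteins did to these copies. By edgeR's quasi-likelihood test at an adjusted p under 0.05, 14 of 127 members rose and 11 fell. Over all 26688 genes tested, 19.4% rose and 20.9% fell in this comparison, so the members' shares were below those of all genes in both directions. Of the 2437 processed pseudogenes tested, members included, 10.8% rose and 2.83% fell. Beside these, the members' share was similar for rises and higher for falls. Median counts were 619 in members, 1093 over all genes and 44 in processed pseudogenes, so these shares are not set at a like depth. The members' median log2 fold change was -0.04, and that of all genes -0.00. The 14 that rose did not overlap control in any library, and 9 of them rose more than 2-fold. Of the 11 that fell, 0 did so more than 2-fold, and without triple KD replicate 2 the count was 7. The rule favours members that are high in 1 group. RPL7AP22, RPS27AP12, RPS4XP17, RPS7P3 and RPL7AP66 had under 150 counts over the other 9 libraries together. RPL7AP66 stood at a similar level in control and triple KD, while the first 4 became members through triple KD. Those first 4 are among the 14, and without all 5 members 10 of 122 rose and 11 fell.

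Members on the strand of their host gave most of the increases. Of these 33, 10 rose and 2 fell (median log2 fold change 0.05). Of the 31 on the opposite strand only, 0 rose and 3 fell (-0.04), and of the 63 in no intron, 4 rose and 6 fell (-0.12). On the opposite strand, 0 were higher and 5 lower at an unadjusted p under 0.05, and DESeq2 called 0 higher and 3 lower. Of the 619 same-strand intronic processed pseudogenes of other families, 144 rose and 8 fell, with a median of 0.51. These were not held to the members' count threshold and had a median of 45 counts, against 404 for the same-strand members. The fold changes of these sets are therefore not compared at a like depth. Without the 5 members under 150 counts outside triple KD, 6 of 28 same-strand members rose and 2 fell, with a median of -0.00. With members chosen by at least 50 counts in the 3 control libraries, 6 same-strand members rose, and of the 8 same-strand members with 1000 or more counts 0 rose by edgeR or DESeq2 (1 at an unadjusted p under 0.05).

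The calls were also counted by identity to the parent. Of 36 members under 95% identity, 13 rose and 3 fell. Of 38 members at 95% to under 98%, 1 rose and 0 fell, and of 53 members at 98% or more, 0 rose and 8 fell. Median counts were 398.5 under 95%, 318.5 at 95% to under 98% and 2013 at 98% or more. These shares are therefore not set at a like depth, and small changes are more readily called in the highest class. At an unadjusted p under 0.05, 3 fell in the middle class and 1 rose in the highest, while DESeq2 called 0 in either case. Among same-strand members, 9 of 15 under 95% rose, against 1 of 18 at 95% or more. RPL7AP22, RPS27AP12 and RPS4XP17 are among these 9 and RPS7P3 is the 1, and the rule had drawn these 4 in through triple KD. Without these 4 and RPL7AP66, 6 of 12 under 95% rose. At 95% or more, 0 of 16 rose by edgeR or DESeq2 (1 at an unadjusted p under 0.05). The 14 that rose had a median of 93.3% unique windows, against 49.7% for the other members. How far read placement and how far position set this split was not tested.

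**Figure D1:**
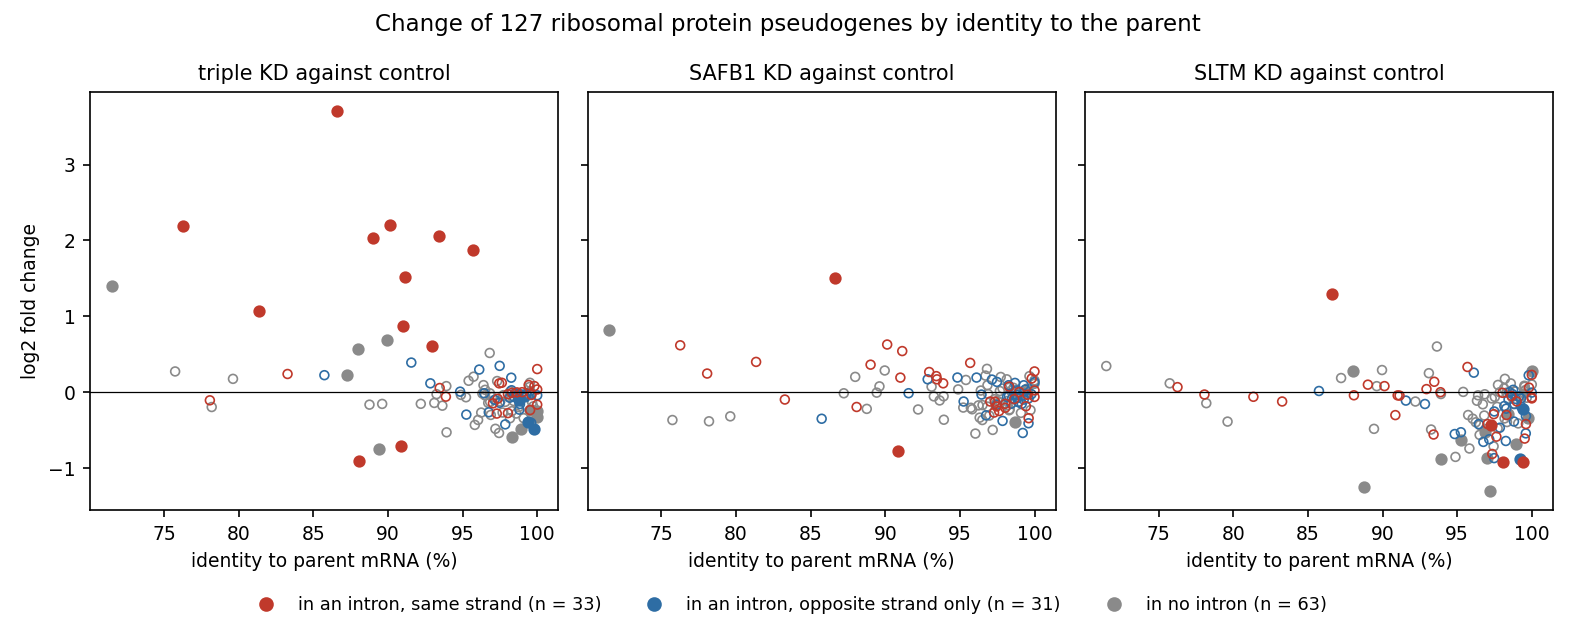
Log2 fold change (y axis) of the 127 pseudogenes against their identity to the parent mRNA in % (x axis) for triple KD, SAFB1 KD and SLTM KD, each against control. Filled points passed the edgeR test and open points did not, and colours give the position of the copy. In triple KD the 10 filled same-strand points above 0 lie between 76.3% and 95.7% identity, while the members at 98% or more lie between -0.59 and 0.30, 8 of them filled and below 0.

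RPL7AP22 changed most. It lies in a 43736-base intron of PKP4, which encodes a plakophilin of cell junctions (chromosome 2, 158548425 to 158549224, plus strand). It stood at 1.03, 1.20 and 1.51 CPM in triple KD, 0.184, 0.327 and 0.301 CPM in SAFB1 KD and 0.289, 0.235 and 0.172 CPM in SLTM KD, against 0.128, 0.067 and 0.093 CPM in control. All 9 knockdown libraries were above all 3 control libraries, and triple KD stood clear of both single knockdowns. The log2 fold change was 3.71 ± 0.29 (SE, edgeR adjusted p = 2.12e-17) in triple KD, 1.50 ± 0.39 (0.0055) in SAFB1 KD and 1.29 ± 0.40 (0.030) in SLTM KD. The control level rests on 8, 5 and 7 counts. RPL7AP22 became a member through its triple KD counts, so its place in the list is not independent of this rise. Leaving out replicate 2 ended the SAFB1 KD call, with an adjusted p of 0.054 for control and 0.061 for SAFB1 KD. The SLTM KD call was lost without control replicate 2 (0.151) or 3 (0.084), or SLTM KD replicate 1 (0.164) or 2 (0.070).

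RPL7AP16 lies in a 12043-base intron of GPBP1L1 on the minus strand (chromosome 1, 45651039 to 45651826). It reached 1.72, 1.75 and 1.56 CPM in triple KD, 0.567, 0.564 and 0.550 CPM in SAFB1 KD and 0.401, 0.402 and 0.344 CPM in SLTM KD, against 0.367, 0.483 and 0.238 CPM in control. Triple KD was about 3 times SAFB1 KD, with no overlap, and SLTM KD lay within the control range. The log2 fold change in triple KD was 2.20 ± 0.19 (SE, adjusted p = 2.85e-15), and triple KD exceeded SAFB1 KD by 1.58 ± 0.18. In SAFB1 KD it was 0.63 ± 0.24 and missed the threshold (adjusted p = 0.085).

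The pair in the FAM185 genes rose less. RPL7AP43 (chromosome 7, 77115399 to 77116192, minus strand) was at 0.700, 0.751 and 0.584 CPM in triple KD, against 0.223, 0.201 and 0.278 CPM in control, a log2 fold change of 1.52 ± 0.27 (adjusted p = 2.28e-06). RPL7AP39 (chromosome 7, 102755146 to 102755939, plus strand) was at 1.47, 1.91 and 1.64 CPM in triple KD, against 0.846, 0.833 and 1.07 CPM in control, a log2 fold change of 0.87 ± 0.15 (adjusted p = 2.10e-06). Both copies were without overlap between these groups. FAM185A, around RPL7AP39, stood at 8.25 ± 0.445 CPM in triple KD and 8.62 ± 0.180 CPM in control (adjusted p = 0.45), while FAM185BP, around RPL7AP43, rose by 0.64 on the log2 scale.

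The other 7 RPL7A copies did not pass the test in triple KD. RPL7AP66, the fifth on its host's strand, sits in the long noncoding RNA gene MIR924HG and averaged 0.334 CPM in triple KD and 0.303 CPM in control. RPL7AP6, the most abundant copy with 3.45 CPM in triple KD and 3.51 CPM in control, lies on the opposite strand of SMOC1. RPL7A itself had a log2 fold change of 0.01 (adjusted p = 0.59). The copies that rose were at 86.6% to 91.1% identity to RPL7A, and of the 7 others 6 were at 95.3% or more and RPL7AP19 at 85.7%.

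**Figure D2:**
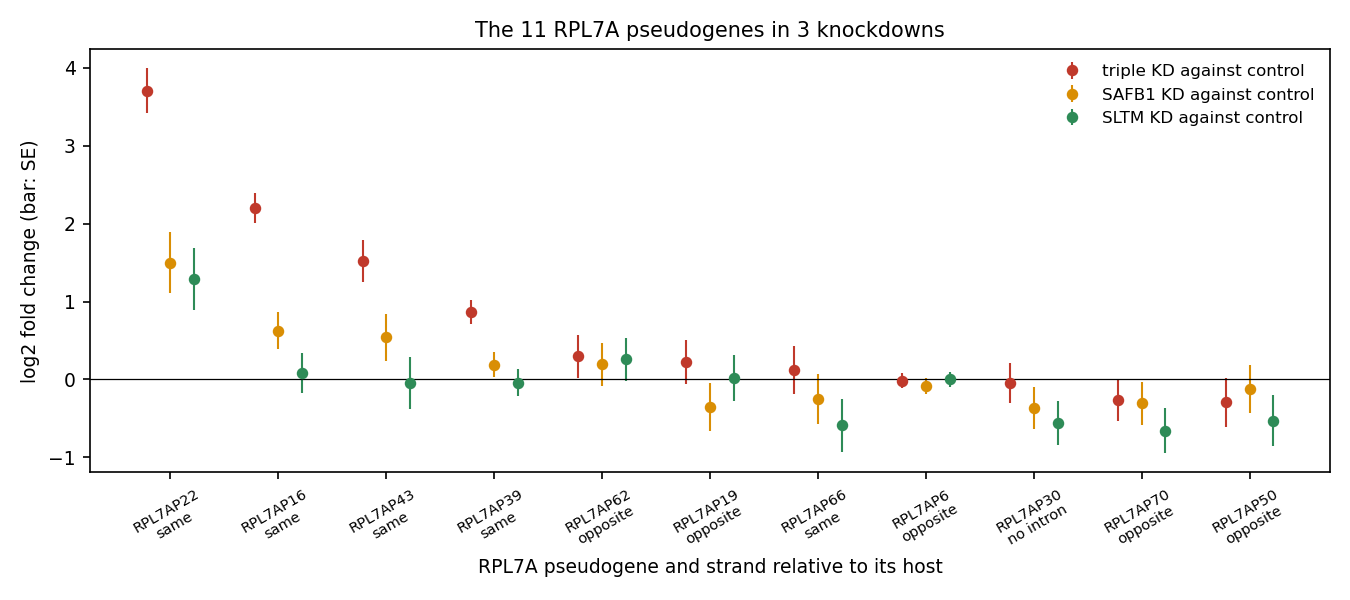
Log2 fold change with SE (y axis) of the 11 RPL7A pseudogenes in triple KD, SAFB1 KD and SLTM KD, each against control, with the strand relative to the host under each name (x axis). The values for triple KD run down to 0.87 over the first 4 copies, which lie in introns on their host's strand, and stay between -0.30 and 0.30 in the other 7.

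Copies of small-subunit genes made up 6 of the 14. RPS20 encodes a protein of the small-subunit head, and its diverged copy RPS20P33 (76.3% identity) lies in a 6867-base intron of PACS2, a membrane sorting protein gene (chromosome 14, 105374618 to 105374971, plus strand). RPS20P33 was at 1.07, 1.28 and 1.14 CPM in triple KD, 0.353, 0.445 and 0.372 CPM in SAFB1 KD and 0.225, 0.419 and 0.155 CPM in SLTM KD, against 0.303, 0.336 and 0.132 CPM in control. Only triple KD stood apart from control among the 3 knockdowns by the test, at 2.19 ± 0.24 (adjusted p = 1.74e-11), and it exceeded SAFB1 KD by 1.57 ± 0.23.

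RPS27A encodes a ribosomal protein fused to ubiquitin. Its copy RPS27AP12 lies in UBE3C, a ubiquitin ligase gene (chromosome 7, 157192368 to 157192832, plus strand). RPS27AP12 was at 0.718, 0.707 and 0.647 CPM in triple KD, 0.230, 0.163 and 0.177 CPM in SAFB1 KD and 0.160, 0.101 and 0.069 CPM in SLTM KD, against 0.128, 0.148 and 0.212 CPM in control. The single knockdowns overlapped control, and triple KD was above all other libraries (2.06 ± 0.29, adjusted p = 1.45e-08). RPS27AP12 also became a member through triple KD.

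RPS4X is the X-linked form of a small-subunit protein gene. RPS4XP17 lies in a 5855-base intron of VPS53, a gene of the complexes that tether vesicles from endosomes (chromosome 17, 656794 to 657547, minus strand). RPS4XP17 was at 0.893, 0.808 and 0.789 CPM in triple KD, 0.184, 0.238 and 0.372 CPM in SAFB1 KD and 0.192, 0.319 and 0.138 CPM in SLTM KD, against 0.176, 0.215 and 0.212 CPM in control. Its rise of 2.03 ± 0.27 on the log2 scale (adjusted p = 3.80e-09) came with a fall of VPS53 to 50.02 ± 0.329 CPM in triple KD, against 90.0 ± 0.345 CPM in control (SD, n = 3), a log2 fold change of -0.85. RPS4XP17 became a member through triple KD as well.

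RPS7P3, in PCNX2 (chromosome 1, 233288868 to 233289447, minus strand), was at 0.508, 0.967 and 0.836 CPM in triple KD, against 0.160, 0.201 and 0.265 CPM in control (1.87 ± 0.28, adjusted p = 8.87e-08). It too became a member through triple KD. RPS6P25 copies RPS6, the small-subunit protein phosphorylated by S6 kinases, and lies in GCDH, a mitochondrial dehydrogenase gene. It was at 1.24, 0.967 and 1.17 CPM in triple KD, against 0.782, 0.779 and 0.649 CPM in control (0.61 ± 0.18, adjusted p = 0.0037). The change of RPS6P25 was the smallest among the 10 same-strand members that rose. The intron around RPS6P25, at 2338 bases, was also the shortest of the 10.

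RPL4P6, a 1304-base copy of the large-subunit gene RPL4, lies in MRTFA, which encodes an actin-regulated coactivator of transcription. It was at 1.61, 1.47 and 1.45 CPM in triple KD, 1.03, 0.876 and 0.940 CPM in SAFB1 KD and 0.738, 0.654 and 0.670 CPM in SLTM KD, against 0.607, 0.658 and 0.874 CPM in control. Triple KD was higher by 1.07 ± 0.16 (adjusted p = 1.18e-07), while SAFB1 KD, above control in each library, missed the threshold (0.40 ± 0.18, adjusted p = 0.17).

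**Figure D3:**
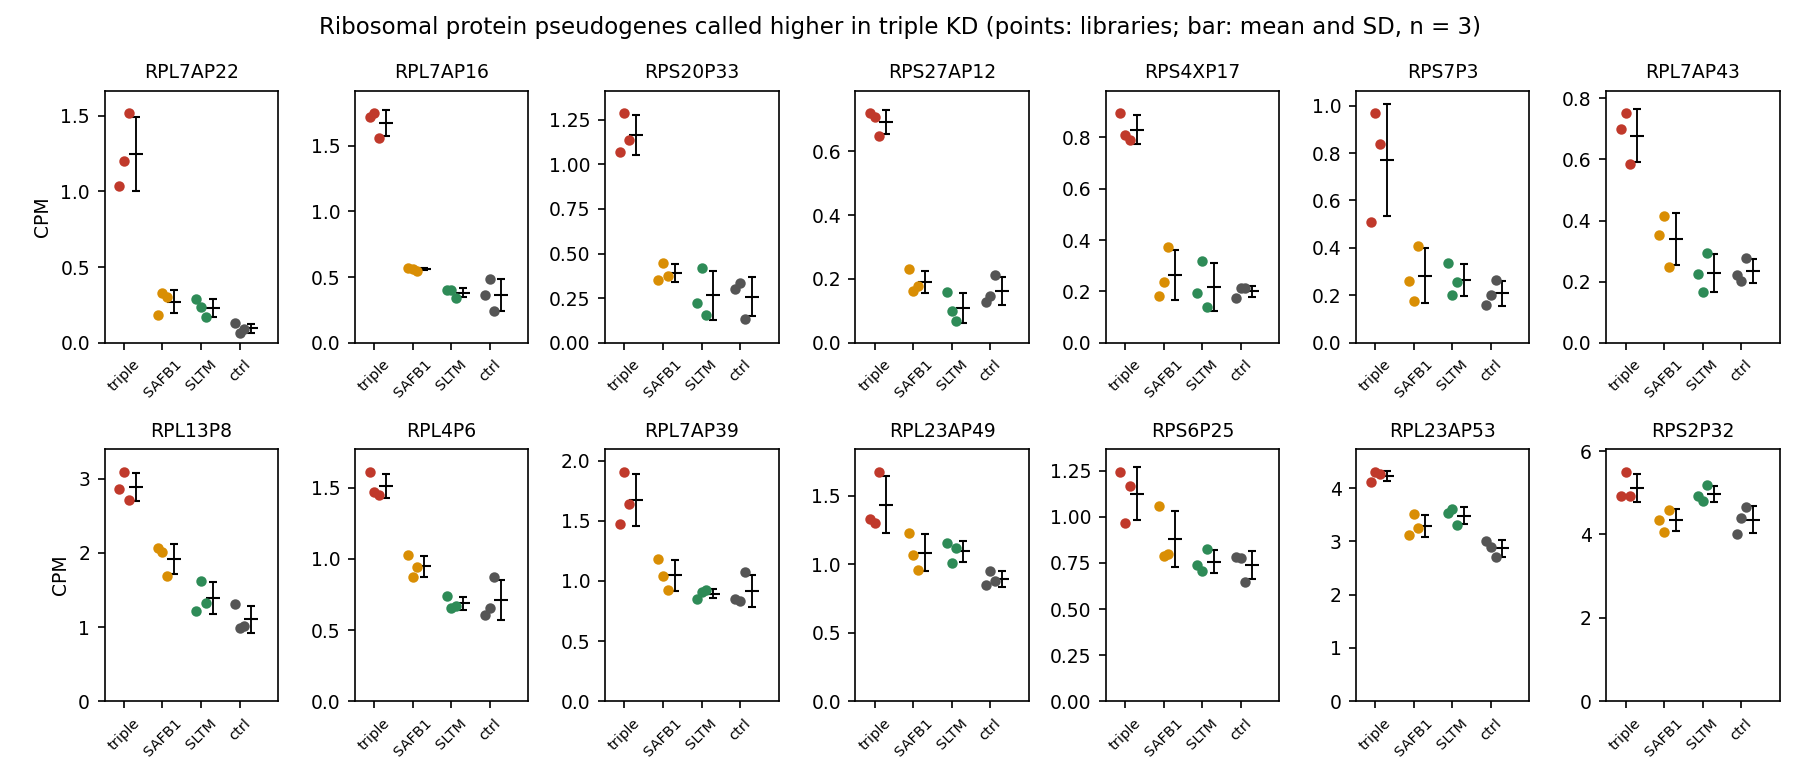
CPM (y axis) of the 14 pseudogenes that rose in triple KD, one panel each, in the 3 libraries of triple KD, SAFB1 KD, SLTM KD and control (x axis), with mean and SD. In each panel the triple KD points lie above the control points, and RPL7AP22 and RPL13P8 also do so in SAFB1 KD by the test.

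Hosts were set beside the copies they hold. Of the 33 host genes 30 could be tested, and 10 rose and 8 fell in triple KD, against a background of 40.3% called in either direction over all genes. The tested hosts had a median of 28844.5 counts, against 1093 over all genes, so these shares are not set at a like depth. A host change as small as 0.06 on the log2 scale (TXNRD1) passed the test. The hosts of the 10 copies that rose split into 7 lower, 2 higher (FAM185BP and MRTFA) and FAM185A, which did not pass the test, with a median log2 fold change of -0.25. Of the 18 tested hosts of the 21 copies that were not called, 7 rose and the other 11 did not pass the test. PACS2 stood at 43.5 ± 1.30 CPM in triple KD and 57.9 ± 1.18 CPM in control, GPBP1L1 at 78.9 ± 1.48 CPM in triple KD and 104.5 ± 1.02 CPM in control, and PKP4 at 69.5 ± 1.80 CPM in triple KD and 90.2 ± 1.20 CPM in control. The copies and their hosts moved in opposite directions at 7 of 10 loci. The 4 loci of RPL7AP22, RPS27AP12, RPS4XP17 and RPS7P3, which became members through triple KD, are among the 7. Without them the host was lower at 3 of 6 loci and higher at 2, with a median of -0.11.

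Host level and intron length also differed between these sets. The host was at 10 CPM or more in control for 8 of the 10 copies that rose and for 10 of the 21 not called. The introns of the copies that rose were 2338 to 43736 bases long with a median of 9455, and those of the copies not called were 10357 to 246545 bases with a median of 31156. Without the 4 copies that became members through triple KD, 4 of 6 hosts were at 10 CPM or more, and the median intron was 6459.5 bases. The part of host level and intron length in the result was not tested.

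**Figure D4:**
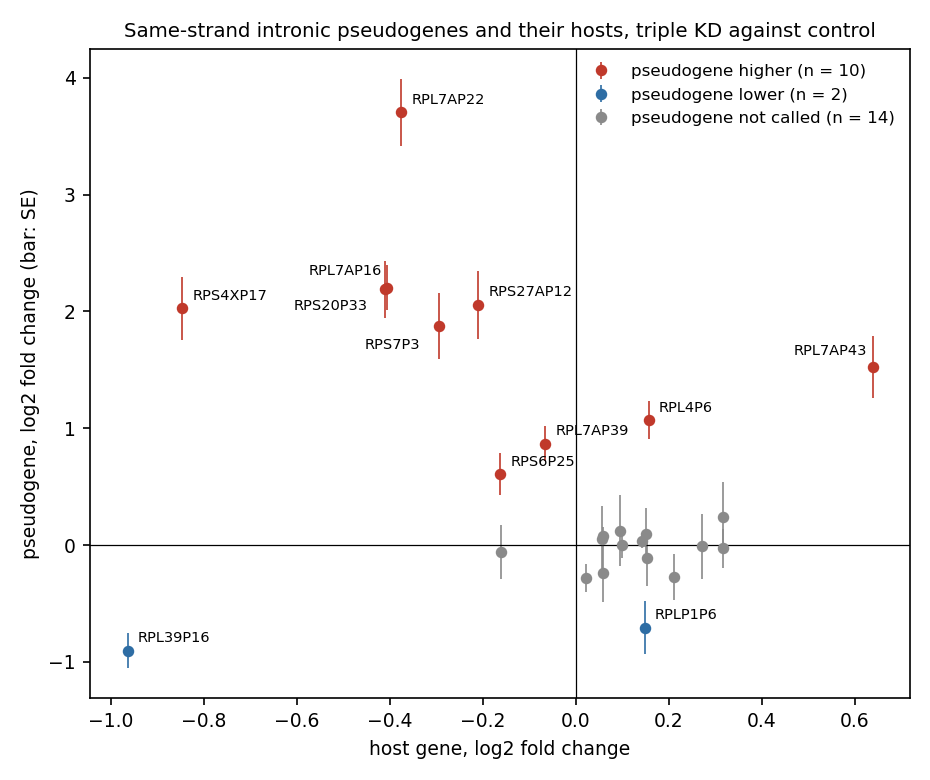
Same-strand intronic pseudogenes (y axis, log2 fold change with SE) and their host genes (x axis, log2 fold change), comparing triple KD with control, for the 26 hosts at 1 CPM or more in control. Copies that rose lie mostly to the left of 0, with FAM185BP (RPL7AP43) at 0.64 and MRTFA (RPL4P6) at 0.16 to the right, and RPL39P16 lies low on both axes.

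Sequence words were counted next. GAAGAA, a purine-rich word of splicing enhancers, was searched on the strand of the copy alone. It occurred in 83 of 127 members, 65.4% against 61.9% of the processed pseudogenes tested, in 7 of the 10 same-strand copies that rose and in 14 of the 21 not called. By length it occurred 2.28 times per 1000 bases in members and 1.64 times in the processed pseudogenes tested. The 10 copies were longer than the 21, with medians of 771 and 471 bases. The part of length in these counts was not tested. Among all members, 9 of 83 with the word and 5 of 44 without it rose. The content of A had a median of 29.4% in the 10 and 30.4% in the 21.

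The 4 members that rose outside an intron on their strand were RPL13P8, RPL23AP49, RPL23AP53 and RPS2P32. RPL13P8, the least conserved member at 71.5% identity, was at 2.85, 3.09 and 2.71 CPM in triple KD, 2.07, 2.004 and 1.69 CPM in SAFB1 KD and 1.22, 1.63 and 1.32 CPM in SLTM KD, against 1.31, 0.980 and 1.02 CPM in control. Triple KD was the highest group and SAFB1 KD the next, without overlap, and both passed the test (1.40 ± 0.13, adjusted p = 3.14e-14, and 0.82 ± 0.14, adjusted p = 1.93e-05). Triple KD exceeded SAFB1 KD by 0.58 ± 0.12. It lies 5989 bases downstream of CIP2A on the same strand (chromosome 3, 108543367 to 108543875, minus strand), and CIP2A changed by -0.15 to 50.8 CPM in triple KD, against 56.6 CPM in control.

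RPL23AP49 and RPL23AP53 derive from RPL23A, a large-subunit gene near the tunnel exit, and belong to longer spliced transcripts. RPL23AP49 was at 1.33, 1.30 and 1.67 CPM in triple KD, against 0.846, 0.953 and 0.874 CPM in control (0.68 ± 0.16, adjusted p = 2.06e-04). It overlaps AGGF1P3 on its own strand, which rose by 1.97 on the log2 scale, and uncertain assignment of reads between them cannot be set aside. RPL23AP53 was at 4.12, 4.30 and 4.26 CPM in triple KD, 3.11, 3.50 and 3.24 CPM in SAFB1 KD and 3.53, 3.604 and 3.30 CPM in SLTM KD, against 3.001, 2.90 and 2.701 CPM in control. Triple KD was highest in every library (0.56 ± 0.09, adjusted p = 2.66e-07). RPS2P32 was at 4.92, 5.50 and 4.92 CPM in triple KD, against 4.02, 4.39 and 4.66 CPM in control (0.23 ± 0.08, adjusted p = 0.016), and lost the call without control replicate 1 (0.101) or triple KD replicate 2 (0.132).

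Of the 11 members that fell in triple KD, 8 were at 98% or more identity to the parent, as were 53 of all 127. For 9 of the 11 the parent also fell by the test. Of the 79 ribosomal protein genes, 32 fell in this comparison, and 20 with upper-quartile scaling. RPL21P28, RPL21P75 and RPL21P16 share 1 parent, so the 9 are not separate cases. RPL39P16 fell most and is an exception in sequence. RPL39 encodes one of the smallest large-subunit proteins, and RPL39P16 has drifted at 20 of its 153 bases, shown as capitals.
RPL39P16 (chr2:108878308-108878460, plus): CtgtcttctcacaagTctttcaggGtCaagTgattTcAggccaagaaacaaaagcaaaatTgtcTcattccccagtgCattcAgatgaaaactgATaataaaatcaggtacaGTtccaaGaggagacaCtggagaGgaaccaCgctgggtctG
RPL39P16 was at 0.893, 0.751 and 1.07 CPM in triple KD, 1.49, 1.499 and 1.44 CPM in SAFB1 KD and 1.65, 1.89 and 1.38 CPM in SLTM KD, against 1.53, 1.72 and 1.80 CPM in control. Every triple KD library was below every other library. It fell by 0.90 ± 0.15 (SE) on the log2 scale (adjusted p = 8.44e-07), beside its host CCDC138, whose log2 fold change was -0.96.

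RPLP1P6, the other same-strand copy that fell, moved against its host ATOX1, a copper chaperone gene. RPLP1 encodes a protein of the ribosomal stalk. RPLP1P6 was at 0.490, 0.375 and 0.410 CPM in triple KD, 0.368, 0.460 and 0.372 CPM in SAFB1 KD and 0.577, 0.704 and 0.395 CPM in SLTM KD, against 0.702, 0.712 and 0.662 CPM in control. The fold change was -0.71 ± 0.23 in triple KD (adjusted p = 0.0084) and -0.78 ± 0.23 in SAFB1 KD (0.018), while ATOX1 had 0.15 in triple KD. The calls rest on single libraries. Without triple KD replicate 2 the adjusted p was 0.052, and for SAFB1 KD it was 0.058 without control replicate 2, 0.074 without SAFB1 KD replicate 1 and 0.063 without SAFB1 KD replicate 3.

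The 5 copies of RPL21, a large-subunit gene, had a median log2 fold change of -0.32, and 3 fell. RPL21P118 was counted among the 5 by its symbol, although it aligned best to RPL14. RPL21P28 was at 4.19, 4.16 and 4.43 CPM in triple KD, against 5.08, 5.99 and 5.73 CPM in control (-0.40 ± 0.08, adjusted p = 1.48e-05). RPL21P75 was at 1.42, 1.49 and 1.72 CPM in triple KD, against 1.79, 2.30 and 2.36 CPM in control (-0.49 ± 0.13, adjusted p = 0.0012). RPL21P16 was at 1.65, 2.24 and 1.89 CPM in triple KD, against 2.39, 2.44 and 2.45 CPM in control (-0.32 ± 0.12, adjusted p = 0.027). RPL21 fell by 0.24 on the log2 scale (adjusted p = 3.37e-14), the lowest value among the 79 ribosomal protein genes. These 3 copies are 99.4% to 100% identical to RPL21, and reads of the parent that were placed on a copy cannot be told apart from reads of the copy. The RPL21P16 call was lost without control replicate 2 (0.059) or 3 (0.061), without triple KD replicate 1 (0.174) or 3 (0.075), and in DESeq2 (0.072).

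The remaining members that fell were RPL23AP87 (-0.75 ± 0.25), RPL24P4 (-0.59 ± 0.17), RPL10P9 (-0.49 ± 0.18), RPL41P1 (-0.25 ± 0.05), RPL13AP5 (-0.23 ± 0.07) and RPS2P5 (-0.11 ± 0.02, SE in each case). Of these, RPL23AP87 lost its call without triple KD replicate 2 (adjusted p = 0.091). RPL24P4 did so without control replicate 2 (0.067) or triple KD replicate 2 (0.066). RPL10P9 did so without control replicate 1 (0.055) or 3 (0.156), without triple KD replicate 2 (0.080) or 3 (0.086), and in DESeq2 (0.079).

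The most abundant members are near copies of their parents. Per length, RPS2P5 was the highest at 565 CPM per kb over the 12 libraries, followed by RPL41P1 at 315 CPM per kb and RPS28P7 at 34.2 CPM per kb. RPS2P5, on the opposite strand of the kinase gene TAOK3, was at 468, 459 and 467 CPM in triple KD, 510, 502 and 514 CPM in SAFB1 KD and 510, 502 and 524 CPM in SLTM KD, against 503, 486 and 514 CPM in control. Triple KD was below all other libraries (adjusted p = 3.95e-06), while RPS2 had a log2 fold change of -0.01 (adjusted p = 0.81).

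RPL41P1 is shown because none of its bases sets it apart from the parent. RPL41 encodes the smallest ribosomal protein, and all 81 bases of RPL41P1 match its mRNA.
RPL41P1 (chr20:21755270-21755350, plus): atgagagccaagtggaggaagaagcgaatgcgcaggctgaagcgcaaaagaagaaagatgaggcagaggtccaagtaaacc
RPL41P1 was at 20.03, 21.1 and 21.3 CPM in triple KD, 24.4, 27.3 and 28.5 CPM in SAFB1 KD and 29.7, 25.9 and 34.2 CPM in SLTM KD, against 23.8, 24.6 and 25.6 CPM in control. Triple KD was below control (adjusted p = 9.28e-05) and SLTM KD above it (0.27 ± 0.05, adjusted p = 8.82e-05), in each case without overlap. RPL41 itself fell by 0.11 on the log2 scale in triple KD, and its value of 0.06 in SLTM KD did not pass the test (adjusted p = 0.14).

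Of the 8 most abundant members, RPS2P5, RPL41P1 and RPL13AP5 fell in triple KD, and the other 5 did not pass the test in any knockdown against control. RPL13AP5 was at 5.66, 5.85 and 6.31 CPM in triple KD, against 6.51, 7.28 and 7.14 CPM in control, without overlap. RPS2P46 averaged 14.2 CPM in triple KD and 14.2 CPM in control, RPL36AP37 averaged 8.77 CPM in triple KD and 8.55 CPM in control, and RPL23AP42 averaged 8.06 CPM in triple KD and 8.10 CPM in control. RPL6P27 and RPS28P7 had log2 fold changes of -0.04 each in triple KD. RPL36AP37 and RPS28P7 are 100% identical to their parents.

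The pseudogenes were read beside the 79 cytosolic ribosomal protein genes. In triple KD 13 of these rose and 32 fell, with a median of -0.02, and with upper-quartile scaling 27 rose and 20 fell, with a median of 0.01. Without triple KD replicate 3, 7 rose, and without triple KD replicate 2, 21 fell. The pseudogenes' counts of 14 and 11 were the same under upper-quartile scaling. Summed over the same-strand members, the level was 56.8 ± 1.66 CPM in triple KD, 50.3 ± 1.81 CPM in SAFB1 KD and 47.6 ± 1.67 CPM in SLTM KD, against 50.5 ± 0.942 CPM in control. Summed over all members without RPS2P5 it was 246.9 ± 8.47 CPM in triple KD and 249.2 ± 4.17 CPM in control.

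SAFB1 KD changed few members. Of the 127, 2 rose and 2 fell, against a background of 5.04% higher and 4.62% lower over all genes, with a median log2 fold change of -0.04. The 2 that rose became 1 without SAFB1 KD replicate 2. The 2 that fell became 0 without SAFB1 KD replicate 3 and 1 without any other library of these groups. RPL7AP22 and RPL13P8, given above, were higher. RPLP1P6 was lower, and so was RPS27AP16, which was at 5.17, 4.87 and 3.76 CPM in SAFB1 KD, against 5.92, 5.10 and 7.27 CPM in control. Its groups overlapped (-0.40 ± 0.13, adjusted p = 0.032), and the call was lost without control replicate 1 (0.056) or 3 (0.352), without SAFB1 KD replicate 2 (0.066) or 3 (0.183), with filterByExpr (0.086) and in DESeq2 (0.371).

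SLTM KD gave more decreases than increases among the members. Of the 127, 14 fell and 3 rose, against a background of 5.65% lower and 3.6% higher, and the median log2 fold change was -0.12, with 0.00 over all genes. Of the 14, 12 did not overlap control. The count was 6 without SLTM KD replicate 3 and 9 without control replicate 1, and the 3 that rose became 1 without control replicate 2 or 3 or SLTM KD replicate 1 or 2. Over all genes 38.9% of the calls in this comparison were increases, and 57.5% with upper-quartile scaling, under which 13 members fell and 3 rose. DESeq2 called 4 members lower and gave no adjusted p for 68 of the 127, including 8 of these 14. Of the 14, 11 were not in an intron on their strand and 7 were at 98% or more identity. The 370 ribosomal protein pseudogenes with 10 to 199 counts had a median of -0.25, with 2 called lower and 0 higher by edgeR (23 lower and 2 higher at an unadjusted p under 0.05, and 0 in either direction by DESeq2). In the same libraries 25 of the 79 ribosomal protein genes fell and 2 rose, with a median of -0.04, and the parent fell with the copy for 1 of the 14.

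The lowest values were those of RPL13AP22, RPL8P4, RPS27P19, RPS26P47 and RPL41P2. RPL13AP22 was at 0.144, 0.251 and 0.223 CPM in SLTM KD, against 0.654, 0.295 and 0.596 CPM in control (-1.30 ± 0.32, adjusted p = 0.0035). RPL8P4 was at 0.176, 0.134 and 0.223 CPM in SLTM KD, against 0.527, 0.336 and 0.424 CPM in control (-1.25 ± 0.32, adjusted p = 0.00535). Neither copy lies in an intron. RPS27P19, in a 141078-base intron of the kinase gene SIK3, was at 0.545, 0.402 and 0.378 CPM in SLTM KD, against 0.910, 0.645 and 0.980 CPM in control (-0.92 ± 0.22, adjusted p = 0.0020), and SIK3 had 0.05. RPS26P47, in GGACT, was at 0.225, 0.235 and 0.361 CPM in SLTM KD, against 0.527, 0.483 and 0.543 CPM in control (-0.92 ± 0.26, adjusted p = 0.015).

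These 4 did not pass the test in triple KD, where SLTM was also depleted. Set against SLTM KD, triple KD was higher by the test for RPL8P4, RPS27P19 and RPS26P47, by 1.08 ± 0.33, 0.65 ± 0.23 and 1.02 ± 0.27 on the log2 scale, and RPL13AP22 by 0.82 ± 0.35, which missed the threshold (adjusted p = 0.058). The 4 were named for their low SLTM KD values, and this comparison uses those libraries again, which favours a higher triple KD value. The RPS26P47 call in SLTM KD was lost without control replicate 3 (0.052) or SLTM KD replicate 1 (0.096) or 2 (0.071). RPL41P2 was at 0.209, 0.285 and 0.241 CPM in SLTM KD, against 0.543, 0.483 and 0.344 CPM in control (-0.89 ± 0.29, adjusted p = 0.042), and its call was lost without control replicate 1 (0.178) or 2 (0.124) or SLTM KD replicate 1 (0.163), 2 (0.051) or 3 (0.103). The members higher in SLTM KD were RPL7AP22, RPL41P1 and RPL23AP53. The last had 0.28 ± 0.09 (adjusted p = 0.044), which was lost without any 1 of control replicate 1 (0.054), 2 (0.095) or 3 (0.204), SLTM KD replicate 1 (0.121) or 2 (0.153) or triple KD replicate 1 or 2 (0.052 each), and in DESeq2 (0.071).

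**Figure D5:**
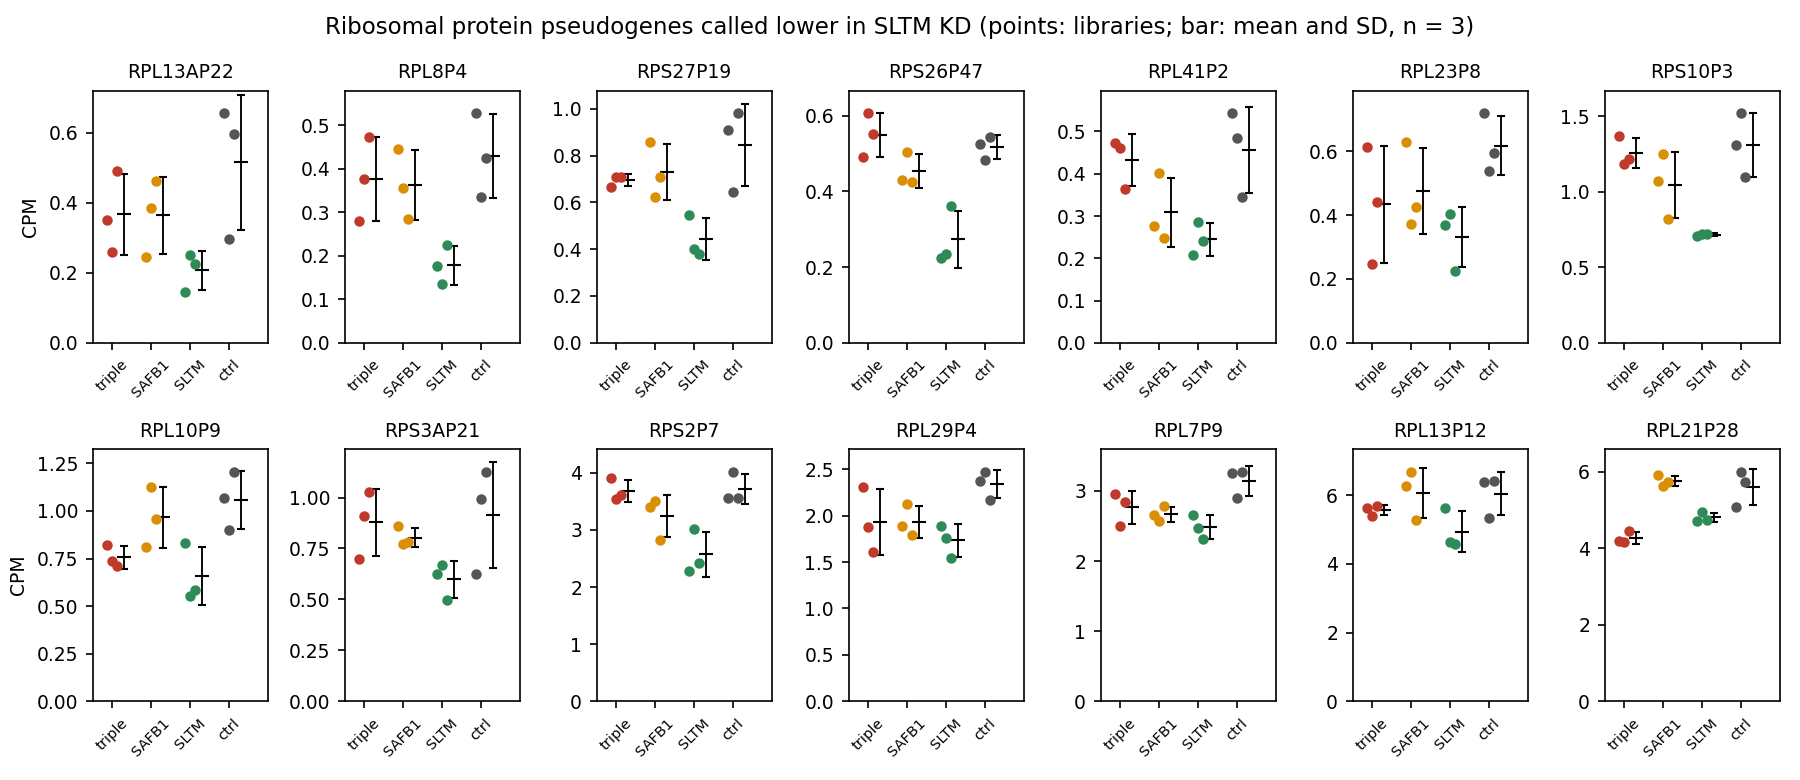
CPM (y axis) of the 14 pseudogenes that fell in SLTM KD, one panel each, in the 3 libraries of triple KD, SAFB1 KD, SLTM KD and control (x axis), with mean and SD. In 12 panels the SLTM KD points lie below all control points, and in RPS3AP21 and RPL13P12 they overlap.

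Triple KD was also set directly against each single knockdown. Against SAFB1 KD 16 members were higher and 9 lower, with 16.2% and 18.6% of all genes. Against SLTM KD 25 were higher and 7 lower, with 17.5% and 18.8% of all genes, and 4 were lower without SLTM KD replicate 1. Both comparisons use the triple KD libraries again. The 10 same-strand members that rose against control had positive values in both, between 0.34 (RPS6P25) and 2.21 (RPL7AP22) against SAFB1 KD and between 0.57 (RPS6P25) and 2.62 (RPS27AP12) against SLTM KD. RPS6P25 alone among them missed the threshold against SAFB1 KD (adjusted p = 0.13).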

How the data were processed

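The authors trimmed reads with cutadapt, aligned them to GRCh38 with STAR 2.7.9a and an earlier GENCODE release, and deposited raw read counts per gene, 1 library per file, from uniquely placed reverse-stranded reads. Libraries were poly(A)-selected and strand-specific. Groups came from the sample titles, and 56856228 to 75533510 counts per library limit the precision of members with few counts. The 3 replicates per group are biological by the series text, which does not say from which cultures they came.

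Symbols, biotypes and introns came from GENCODE 44 (99.0% of IDs found). The test took the 26688 genes whose sum over the 12 libraries reached 10 counts, in 1 fit, by edgeR 4.0.16 (TMM, quasi-likelihood F test, Benjamini-Hochberg, adjusted p under 0.05), in R 4.3.3, checked on simulated counts. CPM are TMM-scaled. Identity to parent is that of the best local alignment by blastn 2.17.0, which can cover less than the whole copy. Biopython 1.88 aligned the sequences shown. Positions of the authors' own gene models were not used here.

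The members and gene lists were chosen with earlier results of these data known. Named were up to 15 of the highest (14 were called) and the 10 lowest members called in triple KD, up to 5 each way in SAFB1 KD and SLTM KD, the 8 most abundant, the 3 nearest the count threshold on each side, and their hosts and parents. Members that reached 200 counts through 1 group were kept and are named. Alternatives were RLE and upper-quartile scaling, DESeq2 1.42.0, other count filters, fits of the compared libraries, a replicate term, each library left out, other member thresholds, and nesting by host span.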

Additional observations from a re-analysis of the deposited data

How the results depend on the processing

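The counts and medians were recomputed under 19 alternative fits and, for the members, under other thresholds. Over these fits the members that rose in triple KD numbered 13 to 14, with 10 on the strand of their host in each. With members of 1000 or more counts, 3 rose and 7 fell in triple KD, and 0 same-strand members rose and 1 fell. In that set 1 rose and 1 fell in SAFB1 KD (median -0.014), 5 fell in SLTM KD (median -0.0334), 5 were higher in triple KD than in SAFB1 KD, and 4 were higher than in SLTM KD. With 50 or more counts in the controls, 6 same-strand members rose in triple KD and 1 member rose in SAFB1 KD (median -0.0560). DESeq2 called 1 higher and 0 lower in SAFB1 KD and 1 higher and 4 lower in SLTM KD, where many members received no adjusted p (58 and 68 of 127). In SAFB1 KD the count at an adjusted p under 0.05 was 1 lower with filterByExpr, and the median was -0.052 without a low-count filter and -0.045 with only the libraries compared, a fit that gave 1 higher member in SLTM KD. Upper-quartile scaling gave 27 higher and 20 lower cytosolic ribosomal protein genes.

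Leaving out 1 library at a time, the members that fell in triple KD numbered 7 to 14 (1 to 3 on the same strand), those lower than in SLTM KD 4 to 8, those that fell in SLTM KD 6 to 15, those that rose in SLTM KD 1 to 3, those that rose in SAFB1 KD 1 to 2, and those that fell in SAFB1 KD 0 to 2. The SAFB1 KD median ran from -0.0663 to -0.0307. Ribosomal protein genes that rose numbered 7 to 18, and those that fell 21 to 35. Libraries with the same replicate number shared little. Over 18 same-numbered pairs the correlation of deviations ran between -0.03 and 0.14, with 1 pair over 0.1. Over pairs with unlike numbers it ran between -0.11 and 0.06. A weak shared effect of replicate number cannot be set aside. With a replicate block, 14 members rose and 13 fell in triple KD, 3 rose and 2 fell in SAFB1 KD, and 3 rose and 20 fell in SLTM KD. Without members under 150 counts outside triple KD, an alternative chosen after seeing the data, 6 same-strand members rose in triple KD. Of 42 named results 13 lost their call under some alternative. The 42 include the triple KD results of RPS2P46, RPL36AP37, RPL23AP42, RPL6P27 and RPS28P7, which had no call to lose. RPL23AP42, RPL6P27, RPS28P7 and RPS2P46, called in no fit, had values of both signs over the fits, and 0 of the called results turned direction. Most members had under 1000 counts over 12 libraries, which limits how small a change can be called.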
